A study of Mus musculus with 4 samples.

Results

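The plasma cell and endoplasmic reticulum (ER) secretory genes are a set of 37 mouse genes chosen by symbol for their known roles, of 20659 genes that the array probes could be assigned to. All 37 were found on the array through the RefSeq accession of a probe, by 46 probes in all. They fall into 7 genes of plasma cell identity, 12 chaperones and their cofactors, 4 disulfide isomerases, 8 genes of the translocon and signal peptidase, 4 genes of ER-associated degradation and 2 stress transcription factors. RNA came from lamina propria lymphocytes, the immune cells that sit beneath the gut epithelium, of C57BL6 mice. Every group had received dextran sulfate sodium (DSS), which damages the lining of the colon when drunk, and cells were collected on day 10. The groups were Stat4-/- with DSS and leukemia inhibitory factor (LIF, an interleukin-6-type cytokine), Stat4-/- with DSS, then wild type given DSS and LIF, and wild type given DSS. Each group had 1 one-colour array and 5 mice, and the sources used here do not say whether the RNA of these mice was pooled. With 1 array a group no difference has a replicate check, so no p-value is given and genes are described by the size of their differences.

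Plasma cells are the antibody-secreting end stage of the B cell lineage, and in the gut wall most of them make dimeric IgA. Their differentiation is driven by the transcription factors Blimp-1, encoded by Prdm1, and XBP1, of which Blimp-1 shuts down much of the B cell programme and XBP1 enlarges the ER. Nascent antibody chains enter the ER through the Sec61 channel, lose their signal peptide, fold with the help of BiP, lectin chaperones and disulfide isomerases, and are retrotranslocated and degraded if they fail to fold. The same machinery is used by every secretory cell, and pancreatic acinar, goblet and Paneth cells hold much of it, so the ER genes of the set do not mark plasma cells by themselves.

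The unfolded protein response acts on many ER chaperone genes through the ER stress element, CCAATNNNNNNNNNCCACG. It was searched for on both strands of the RefSeq promoters of build GRCm38.p6, which run from 250 bases before to 50 bases after each gene's start. Promoters were found for 32 of the 37 genes. The element was present in 8 of these 32 (25%), against 37 of 27025 genes with a promoter in the table (0.137%). The 8 were Hspa5, Hsp90b1, Calr, Canx, Dnajc3, Creld2, Pdia6 and Derl3. The part CCACG alone, which lies inside the element, was present in 25 of 32 (78.1%), against 35.5% of all genes. The unfolded protein response element TGACGTGG was present in 1 of 32 (3.12%), the promoter of Pou2af1, against 0.714% of all genes. These are matches of letters and not shown sites of binding. The set was chosen for known roles in the ER and in plasma cells, so these shares describe it and test nothing. The shares of all genes include the set. The windows below are shown for Hspa5, the classical case, and for 4 genes whose array values are described further on. Capitals mark the outer parts of the element, which reads CGTGG and ATTGG where it lies on the opposite strand, and each window is written 5′ to 3′ on the strand of its gene.
Hspa5, chr2:34772005-34772063, plus strand: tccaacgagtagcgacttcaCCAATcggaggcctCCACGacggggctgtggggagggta
Hsp90b1, farther element, chr10:86705618-86705676, minus strand: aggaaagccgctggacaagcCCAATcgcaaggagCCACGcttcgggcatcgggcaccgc
Hsp90b1, nearer element, chr10:86705513-86705571, minus strand: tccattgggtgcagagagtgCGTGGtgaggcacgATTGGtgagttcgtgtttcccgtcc
Canx, chr11:50325780-50325838, minus strand: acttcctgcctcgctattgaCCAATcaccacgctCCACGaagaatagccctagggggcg
Dnajc3, chr14:118937807-118937865, plus strand: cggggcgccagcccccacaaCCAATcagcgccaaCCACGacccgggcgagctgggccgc
Derl3, chr10:75893222-75893280, plus strand: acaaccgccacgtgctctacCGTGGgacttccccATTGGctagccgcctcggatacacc
The element began 65 bases before the gene's start in Hspa5, 212 and 107 bases in Hsp90b1, 145 bases in Canx, 105 bases in Dnajc3 and 156 bases in Derl3.

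The arrays differed in how many probes they detected. The share of probes well above background ran from 37.6% on the wild type DSS and LIF array to 61.7% on that of wild type with DSS. Over the 12674 probes detected by that mark on every array, the wild type DSS and LIF array had a Pearson correlation of 0.800 to 0.818 with the other 3, which correlated at 0.951 to 0.980 among themselves. Both DSS arrays were read in the same scan and the DSS and LIF arrays in 2 other scans, so scan and LIF cannot be told apart. Under DSS and LIF each genotype was read in its own scan, so scan and genotype cannot be told apart there either. The single Stat4 probe had log2 levels of -0.48 and 0.31 in Stat4-/- with DSS and LIF and with DSS, and of 0.21 and -0.49 in wild type with DSS and LIF and with DSS. These levels overlap between genotypes, the sources used here do not place the probe relative to the deletion, and Stat4-/- is therefore called labelled knockout throughout. Of 11 T cell markers, all were well above background on all 4 arrays, and of 15 B cell markers between 12 and 15 were. Markers of epithelium, goblet cells, Paneth cells, pancreatic acinar cells and neutrophils were present as well.

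**Figure D1:**
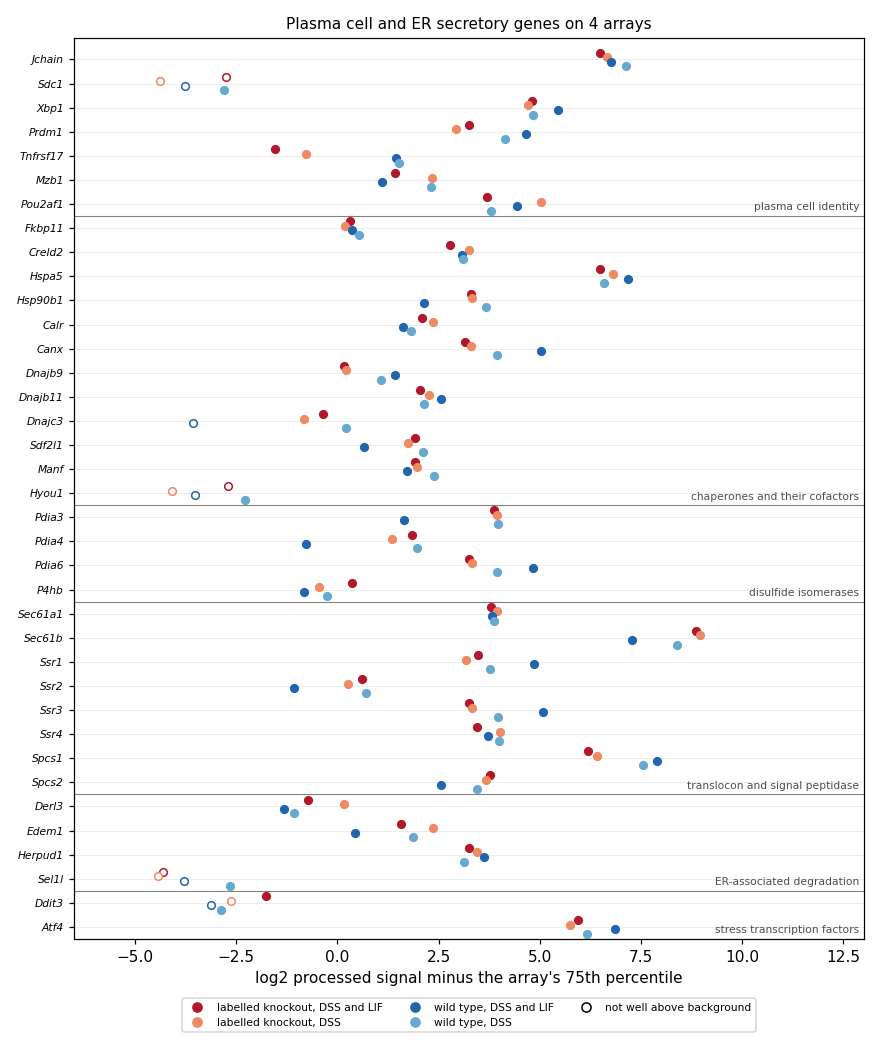
Log2 level of each of the 37 genes on each of the 4 arrays, for the probe with the highest mean, grouped by role. Open symbols are not well above background, and rows are not comparable with each other because probes differ in brightness. Levels on the wild type DSS and LIF array (dark blue) lie at an end of the row in 25 of the 32 genes measured on all arrays.

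A level here is the log2 processed signal of a gene's probe minus the log2 of the 75th percentile of that array, so it compares arrays for 1 gene and not genes with each other. A gene counts as measured in a comparison when both arrays of the comparison had this probe well above background. The set was well detected, with 32 of 37 genes measured on all 4 arrays. Sdc1, Sel1l and Hyou1 were well above background on 1 array alone, that of wild type with DSS, and Ddit3 and Dnajc3 on 2 and 3 arrays. The 32 genes had a median range over the arrays of 1.30 on the log2 scale, or 0.56 without the wild type DSS and LIF array. The same medians over 8039 genes measured on all arrays were 1.29 and 0.63. The wild type DSS and LIF array was the highest for 12 and the lowest for 13 of the 32 genes (78.1% together), against 80.1% of all genes at either end.

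Among the genes of plasma cell identity, Tnfrsf17 differed most between the genotypes. It encodes BCMA, the receptor for the survival factors BAFF and APRIL on plasma cells. Its level was -1.54 in the labelled knockout with DSS and LIF and -0.77 in the labelled knockout with DSS, against 1.44 in wild type with DSS and LIF and 1.51 in wild type with DSS. Both labelled knockout arrays were thus below both wild type arrays, with a gap wider than the differences within a genotype. The log2 difference of labelled knockout minus wild type was -2.29 under DSS (4.89-fold lower) and -2.98 under DSS and LIF (7.88-fold lower). With normexp background correction these were -1.52 and -0.79, so that the second no longer reached 2-fold.

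Prdm1, which encodes Blimp-1 in plasma cells and also in some T cells, showed the same order. Its level was 3.25 and 2.93 in the labelled knockout with DSS and LIF and with DSS, against 4.67 and 4.13 in wild type with DSS and LIF and with DSS. Relative to wild type it was 2.30-fold lower under DSS and 2.67-fold lower under DSS and LIF. Both differences were at least 2-fold under all 7 alternative settings. Those that change only the background filter or average probes cannot alter a gene with 1 probe detected on every array. The 2 genotype comparisons have no array in common. Xbp1, whose product drives ER expansion, differed less, with levels of 4.81 and 4.72 in the labelled knockout with DSS and LIF and with DSS, against 5.46 and 4.82 in wild type with DSS and LIF and with DSS. Its labelled knockout arrays were also below the wild type arrays, but by -0.11 under DSS, which is within the error of replicate spots. The median SD of a log2 difference over replicate spots of a probe was 0.115 in that comparison, and it covers error within arrays only.

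Pou2af1 had opposite LIF differences in the 2 genotypes, at -1.32 on the log2 scale in the labelled knockout and 0.64 in wild type. With normexp they were -2.05 and -0.57, so the opposite directions were lost. Pou2af1 encodes the B cell coactivator OCA-B, which plasma cells keep. Its level was 3.69 and 5.02 in the labelled knockout with DSS and LIF and with DSS, against 4.43 and 3.79 in wild type with DSS and LIF and with DSS. The labelled knockout with DSS stood highest, 2.34-fold above wild type with DSS (0.58 on the log2 scale with normexp), and the labelled knockout with DSS and LIF was 2.50-fold below it. The B cell markers had their highest median level on the same array, with medians of 0.31 and 1.04 in the labelled knockout with DSS and LIF and with DSS, against 0.77 and -0.29 in wild type with DSS and LIF and with DSS. Their part in the Pou2af1 values was not tested, and in RNA from mixed cells fewer cells of a type and less RNA per cell cannot be told apart.

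Mzb1, an ER cochaperone for antibody assembly in B cells and plasma cells, was printed on each array in 10 spots, of which 9 or 10 passed the outlier marks. Its level was 1.41 ± 0.056 and 2.34 ± 0.038 in the labelled knockout with DSS and LIF and with DSS (SD over spots of 1 array, n = 10 spots each). It was 1.09 ± 0.081 (n = 9 spots) in wild type with DSS and LIF and 2.32 ± 0.035 (n = 10 spots) in wild type with DSS. The spots of the DSS and LIF arrays did not overlap with those of the DSS arrays in either genotype. Mzb1 was -0.93 with LIF in the labelled knockout and -1.23 in wild type (2.35-fold lower). The second was at least 2-fold under all 7 alternative settings. Those for the filter and for probe averaging cannot alter it, since Mzb1 has 1 probe, detected on every array. Creld2, an ER protein induced by unfolded proteins and the other gene printed in 10 spots, was 2.77 ± 0.043 (n = 9 spots) and 3.25 ± 0.011 (n = 7 spots) in the labelled knockout with DSS and LIF and with DSS. It was 3.08 ± 0.021 (n = 10 spots) and 3.10 ± 0.063 (n = 9 spots) in wild type with DSS and LIF and with DSS. With normexp Creld2 was -1.05 with LIF in the labelled knockout and -1.04 in wild type. These spots give the technical error of 1 hybridization and no error between mice.

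**Figure D2:**
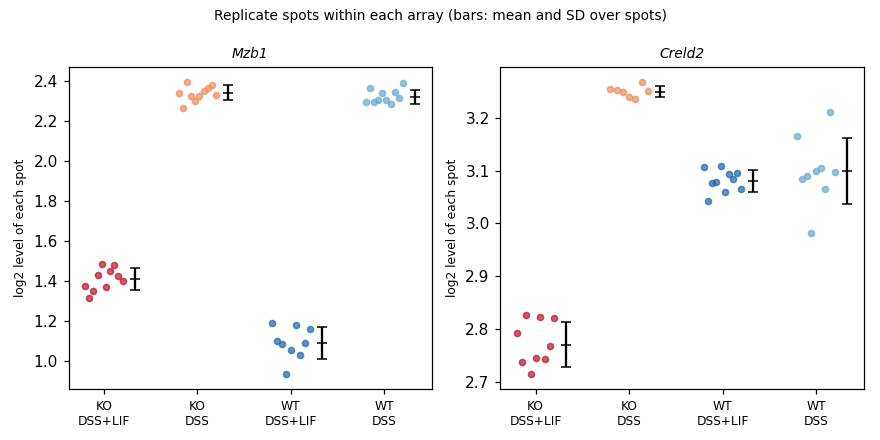
Log2 level of each replicate spot of Mzb1 and Creld2 within each array, with the mean and SD over spots at the right of each group. Mzb1 spots lie between 1.31 and 1.48 and between 0.93 and 1.19 on the DSS and LIF arrays of labelled knockout and wild type, below the DSS spots, which start at 2.26 and 2.28.

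Jchain, the joining chain of dimeric IgA and pentameric IgM, was at 6.48 and 6.67 in the labelled knockout with DSS and LIF and with DSS, against 6.77 and 7.12 in wild type with DSS and LIF and with DSS. Its largest difference in the 4 comparisons was -0.45, for labelled knockout minus wild type under DSS. With normexp that difference was -1.04, and the LIF differences of Jchain were -1.08 in the labelled knockout and -1.49 in wild type. Sdc1, which encodes syndecan-1 (CD138) on plasma cells and epithelium, was well above background in wild type with DSS alone, at -2.80. The 3 other arrays had a lower 75th percentile signal, and the bound that its signal allows is under 1-fold, so no difference is given.

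Among the chaperone genes, Hsp90b1 and Sdf2l1 were lowest and Canx highest on the wild type DSS and LIF array. Hspa5 encodes BiP, the main ER Hsp70 and a sensor partner of the unfolded protein response. Its level was 6.48 and 6.80 in the labelled knockout with DSS and LIF and with DSS, against 7.18 and 6.59 in wild type with DSS and LIF and with DSS, and none of the 4 comparisons reached 2-fold. With normexp Hspa5 was -1.27 with LIF in the labelled knockout and, with quantile normalization, -1.01 between genotypes under DSS and LIF. Hsp90b1, the ER Hsp90 known as GRP94, was 3.30 and 3.33 in the labelled knockout with DSS and LIF and with DSS, against 2.13 and 3.67 in wild type with DSS and LIF and with DSS. Its low value in wild type with DSS and LIF made it 2.90-fold lower with LIF in wild type and 2.24-fold higher in the labelled knockout under DSS and LIF. Canx, the membrane-bound lectin chaperone calnexin, went the other way, at 3.16 and 3.29 in the labelled knockout with DSS and LIF and with DSS, against 5.04 and 3.93 in wild type with DSS and LIF and with DSS. It was 2.16-fold higher with LIF in wild type and 3.69-fold lower in labelled knockout than in wild type under DSS and LIF. The first of these was -0.06 on the log2 scale with normexp, so its direction depends on the setting. Normexp here also adds an offset of 50 to each signal before scaling. Calr, the soluble partner calreticulin, stayed under 2-fold in all 4 comparisons, with differences between -0.25 and 0.54.

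The J-domain cochaperones of BiP differed among themselves. Dnajb9 (ERdj4) was 0.15 and 0.22 in the labelled knockout with DSS and LIF and with DSS, against 1.42 and 1.08 in wild type with DSS and LIF and with DSS. Both labelled knockout arrays were lower, by -0.86 under DSS and by -1.28 under DSS and LIF (2.42-fold). Dnajb11 (ERdj3) had no difference of 2-fold, the largest being -0.51. Dnajc3 (P58IPK), which also restrains the kinase PERK, was -0.82 in the labelled knockout with DSS against 0.21 in wild type with DSS, 2.05-fold lower, or -0.30 on the log2 scale with normexp. It was not well above background in wild type with DSS and LIF, where it was at least 3.26-fold lower than in wild type with DSS. For such a bound the dim side is set to its own level or to the dimmest well detected level of that array, whichever is higher.

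Sdf2l1, a cofactor of the BiP cycle, resembled Hsp90b1, with 1.92 and 1.74 in the labelled knockout with DSS and LIF and with DSS, against 0.66 and 2.11 in wild type with DSS and LIF and with DSS. It was 2.73-fold lower with LIF in wild type. Fkbp11, a prolyl isomerase of secretory cells, and Manf, a stress-induced ER protein, had no difference of 2-fold in any comparison. Their largest differences were -0.33 for Fkbp11 and -0.66 for Manf, the second -1.34 with normexp. The BiP exchange factor Hyou1 was well above background in wild type with DSS alone.

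The disulfide isomerases held the widest differences between the wild type arrays. Pdia4 (ERp72) was 1.84 and 1.34 in the labelled knockout with DSS and LIF and with DSS, against -0.77 and 1.97 in wild type with DSS and LIF and with DSS. It was 6.67-fold lower with LIF in wild type and 6.09-fold higher in the labelled knockout under DSS and LIF, the second being 0.83 on the log2 scale with normexp. Pdia3 (ERp57), which folds glycoproteins together with calnexin and calreticulin, was 3.86 and 3.93 in the labelled knockout with DSS and LIF and with DSS, against 1.65 and 3.96 in wild type with DSS and LIF and with DSS. Without the wild type DSS and LIF array its range was 0.10, and with it Pdia3 was 4.94-fold lower with LIF in wild type. Pdia6 was instead highest on that array, at 3.24 and 3.32 in the labelled knockout with DSS and LIF and with DSS, against 4.82 and 3.95 in wild type with DSS and LIF and with DSS. By this probe Pdia6 was 3.00-fold lower in labelled knockout than in wild type under DSS and LIF. A second, dimmer Pdia6 probe was well above background in wild type with DSS alone, at -1.14. It was at -3.64 in wild type with DSS and LIF, the lowest of the arrays, and so does not show the order of the brighter probe. P4hb, protein disulfide isomerase itself, was 0.36 and -0.45 in the labelled knockout with DSS and LIF and with DSS, against -0.84 and -0.26 in wild type with DSS and LIF and with DSS. It was 2.29-fold higher in the labelled knockout under DSS and LIF, or 0.30 on the log2 scale with normexp.

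In the translocon and signal peptidase group, Spcs1 separated the genotypes. It encodes a non-catalytic subunit of the signal peptidase, which removes signal peptides at the ER membrane. Its level was 6.18 and 6.42 in the labelled knockout with DSS and LIF and with DSS, against 7.90 and 7.56 in wild type with DSS and LIF and with DSS. Relative to wild type it was 2.20-fold lower under DSS and 3.30-fold lower under DSS and LIF. It was at least 2-fold lower in each comparison under all 7 alternative settings. Like Prdm1 it has 1 well detected probe, which the settings for the filter and for probe averaging leave unchanged. Spcs2, another non-catalytic subunit, was 3.77 and 3.66 in the labelled knockout with DSS and LIF and with DSS, against 2.55 and 3.46 in wild type with DSS and LIF and with DSS. By this probe Spcs2 was 2.32-fold higher in the labelled knockout under DSS and LIF. Its second probe was -0.27 on the log2 scale in that comparison, and with normexp the first gave 0.67, so the direction of Spcs2 was not settled.

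Sec61a1, the pore of the translocon, was the steadiest gene of the set, with 3.80 and 3.93 in the labelled knockout with DSS and LIF and with DSS, against 3.82 and 3.88 in wild type with DSS and LIF and with DSS. Its range over the 4 arrays was 0.13 on the log2 scale, although with normexp it was -1.13 with LIF in wild type. Sec61b, a small subunit of the same channel, was 8.85 and 8.95 in the labelled knockout with DSS and LIF and with DSS, against 7.28 and 8.40 in wild type with DSS and LIF and with DSS. By this probe Sec61b was 2.97-fold higher in the labelled knockout under DSS and LIF. A second probe, well above background on all arrays, gave 0.15 on the log2 scale in that comparison. The 4 genes of the translocon-associated protein complex, which binds beside the channel, differed in direction on the wild type DSS and LIF array. With LIF in wild type Ssr1 was 2.10-fold higher, Ssr3 was 2.20-fold higher by its brighter probe alone, Ssr2 was 3.40-fold lower and Ssr4 differed by -0.28 on the log2 scale. In the labelled knockout their LIF differences were 0.29 for Ssr1, 0.34 for Ssr2, -0.06 for Ssr3 and -0.58 for Ssr4. With normexp the LIF differences in wild type were 0.00 for Ssr1, -0.68 for Ssr2, -0.16 for Ssr3 and -1.39 for Ssr4. A second measured probe of Ssr1 gave 0.68 with LIF in wild type.

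Of the degradation genes, Derl3 encodes a derlin of secretory cells that helps to move misfolded proteins out of the ER. Its level was -0.72 and 0.15 in the labelled knockout with DSS and LIF and with DSS, against -1.32 and -1.07 in wild type with DSS and LIF and with DSS. Both labelled knockout arrays were higher, by 2.33-fold under DSS and by 0.59 on the log2 scale under DSS and LIF, and with normexp the first was 0.63. Edem1, which directs misfolded glycoproteins to degradation, was 1.58 and 2.37 in the labelled knockout with DSS and LIF and with DSS, against 0.44 and 1.87 in wild type with DSS and LIF and with DSS. It was lower with LIF in both genotypes, by -0.79 in the labelled knockout and by -1.43 in wild type (2.69-fold). Herpud1, a stress-induced partner of the degradation complex, had no difference of 2-fold. Sel1l, the adaptor of the ubiquitin ligase in that complex, was well above background in wild type with DSS alone.

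Neither stress transcription factor had a measured difference of 2-fold. Atf4, translated when the kinase PERK or related kinases are active, was 5.95 and 5.74 in the labelled knockout with DSS and LIF and with DSS, against 6.85 and 6.16 in wild type with DSS and LIF and with DSS. Its largest difference was -0.90, between the genotypes under DSS and LIF, or -1.41 with normexp and -1.10 with quantile normalization. A second Atf4 probe, well above background on all arrays, gave 0.43 in that comparison and 0.21 between genotypes under DSS, where the first gave -0.41. Ddit3, which encodes the stress factor CHOP, was well above background at -1.76 in the labelled knockout with DSS and LIF and at -2.88 in wild type with DSS. It was not well above background at -2.63 in the labelled knockout with DSS or at -3.12 in wild type with DSS and LIF.

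**Figure D3:**
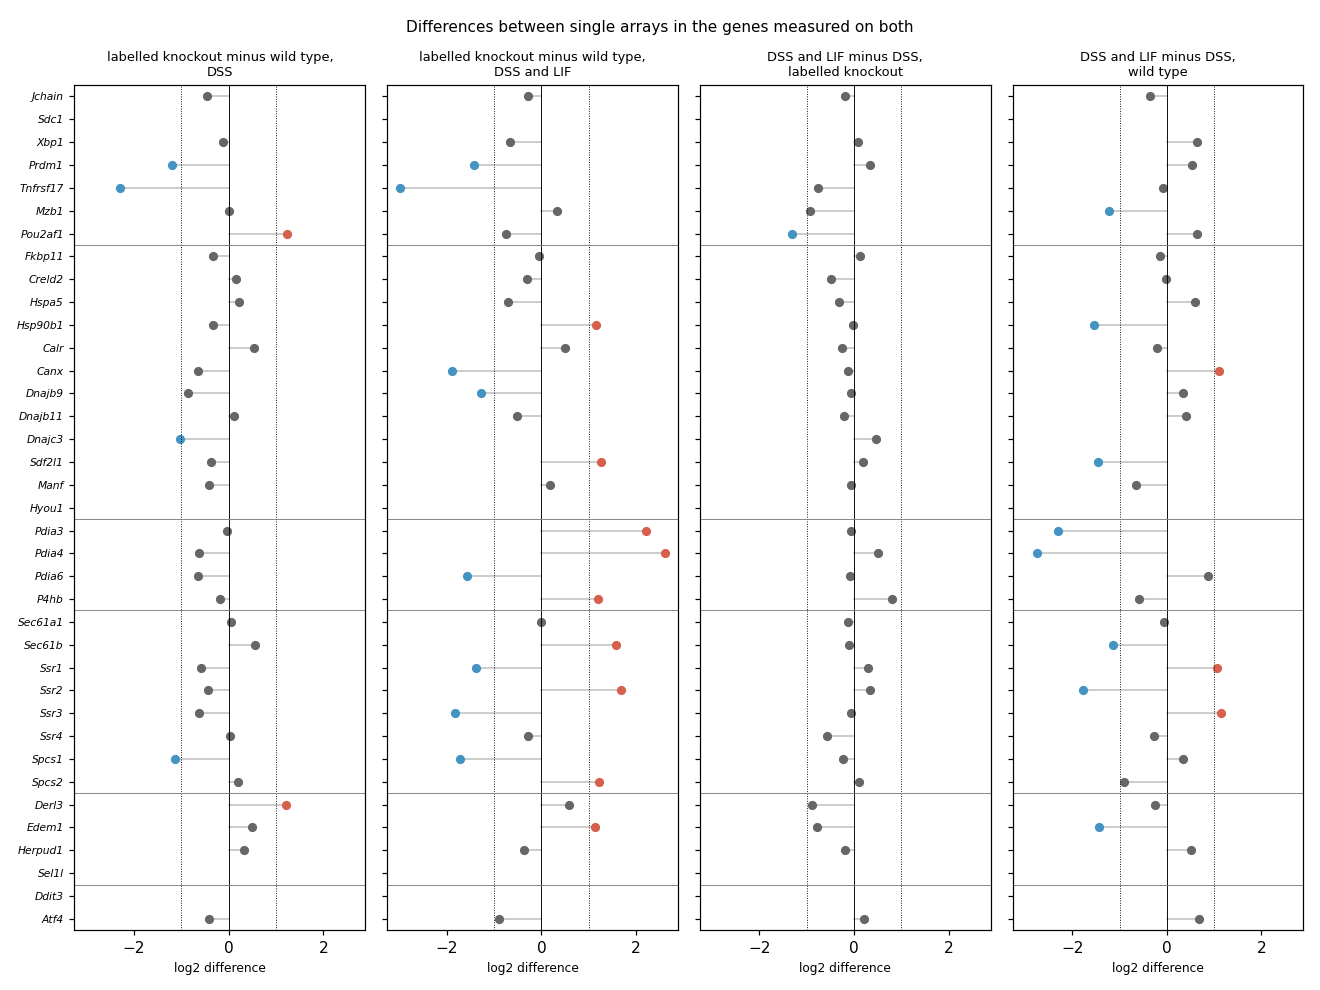
Log2 difference of each measured gene in the 4 comparisons, with genes ordered by role and dotted lines at 2-fold. Red is at least 2-fold higher and blue at least 2-fold lower in the first-named array. The third panel, LIF in the labelled knockout, holds 1 gene past 2-fold, and the panels to either side of it, which use the wild type DSS and LIF array, hold 17 and 11.

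For the labelled knockout against wild type under DSS, which asks what differs with Stat4 in the inflamed gut, 33 genes of the set were measured. Pou2af1 and Derl3 were at least 2-fold higher, 2 of 33, against 13.2% of all 10529 measured genes. Tnfrsf17, Prdm1, Spcs1 and Dnajc3 were at least 2-fold lower, 4 of 33, against 6.94% of all measured genes. The median of the set was -0.33 and that of all measured genes was 0.07. The 4 disulfide isomerases were negative with a median of -0.41, against 45.7% of all measured genes, and Pdia3 at -0.03 lay within the error of replicate spots. The 3 measured degradation genes were positive with a median of 0.50, against 54.3% of all measured genes, but with normexp Edem1 was 0.00 and Herpud1 -0.19. Another 4 genes, Sdc1, Sel1l, Hyou1 and Ddit3, were well above background in wild type only. Of all probes, 61.7% were well above background in wild type with DSS and 44.9% in the labelled knockout with DSS. The bounds of these genes were all under 1-fold, so no difference is given for them. This comparison lies within 1 scan and does not use the array that stood apart. With normexp background correction the counts were 0 higher and 9 lower, against 329 and 819 of 10529 genes in all.

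Of 67 other secretory pathway and plasma cell genes, 55 were measured in this comparison. Of these 2 passed 2-fold upward and 8 downward, around a median of -0.26, against 13.2% upward and 6.94% downward of all measured genes. Sec11a and Sec11c, the catalytic subunits of the signal peptidase, were lower in the labelled knockout by -1.14 and -1.19 on the log2 scale, beside -1.14 for their partner Spcs1. The signal peptidase genes Spcs2 (0.20) and Spcs3 (-0.74) did not reach 2-fold. Stt3a and Ostc, subunits of the oligosaccharyltransferase that attaches N-glycans, were lower by -2.03 and -1.73. Its subunits Rpn2 (-0.16) and Dad1 (0.27) did not reach 2-fold. The derlins Derl1 and Derl2 differed by -1.10 and -1.16, opposite in direction to Derl3, and the cargo receptor Lman1 by -1.14. Srpr, the signal recognition particle receptor, was higher by 3.20. Under DSS and LIF the genotype difference was -0.82 for Sec11a, 0.00 for Sec11c, 0.13 for Stt3a and 0.08 for Ostc. There it was -0.97 for Derl1, -1.22 for Derl2 and -1.26 for Lman1, and Srpr was not measured.

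Several marker lists of other cell types differed between the genotypes under DSS. The median of 13 measured B cell markers was 0.95, and 6 of them passed 2-fold upward and 0 downward. Neutrophil markers had a median of 2.80 with 6 of 7 higher, Paneth cell markers 1.38 with 4 of 5 higher, and stromal markers 1.93 with 4 of 7 higher. T cell markers had a median of -0.57 with 0 of 11 at 2-fold, intestinal epithelial markers -0.43 with 3 of 13 lower, pancreatic acinar markers 0.52 with 4 of 11 higher, goblet cell markers 0.41 with 4 of 8 higher and 1 lower, and macrophage and monocyte markers 0.04 with 0 of 7 at 2-fold. Their part in the values of the set was not tested.

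Under DSS and LIF, the labelled knockout against wild type had 32 measured genes. Pdia4, Pdia3, Ssr2, Sec61b, Sdf2l1, Spcs2, P4hb, Hsp90b1 and Edem1 were at least 2-fold higher, 9 of 32, against 14.2% of all 8348 measured genes. Tnfrsf17, Canx, Ssr3, Spcs1, Pdia6, Prdm1, Ssr1 and Dnajb9 were at least 2-fold lower, 8 of 32, against 31.3% of all measured genes. The median of the set was -0.28 and that of all measured genes -0.45. Dnajc3 was at least 2.20-fold higher by its bound. With normexp the count of higher genes was 2, because 7 of the 9 no longer reached 2-fold, nor did Tnfrsf17 (-0.79) and Dnajb9 (-0.49) among the lower genes. When the probes of a gene were averaged, Sec61b, Spcs2, Ssr1 and Ssr3 no longer reached 2-fold. This comparison uses the array that stood apart, and no comparison under DSS and LIF can be made without it. Its arrays were also read in different scans, so scan and genotype cannot be told apart here.

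Among the other pathway genes 48 were measured under DSS and LIF, of which 5 passed 2-fold upward and 15 downward, around a median of -0.16. The downward count was near the share of all measured genes, 31.3%, of which 14.2% passed upward. The disulfide isomerase Pdia5 was higher in the labelled knockout by 3.58 on the log2 scale. That is in the direction of Pdia3, Pdia4 and P4hb and opposite to Pdia6 (-1.58). Dad1 and Rpn2, subunits of the oligosaccharyltransferase, differed by -2.13 and -1.61, and the PERK kinase gene Eif2ak3 by -2.38. The coat protein gene Sec31a differed by -2.23, the asparagine synthetase gene Asns, a target of ATF4, by -1.82, and the glucosidase subunit gene Prkcsh by -1.75. Lman1 (-1.26), the signal recognition particle genes Srp19 (-1.32) and Srp14 (-1.23), and the translocon genes Sec62 (-1.14) and Sec61g (just at 2-fold) were the remaining lower genes under the naming rule. Pancreatic acinar markers had a median of 3.36 with 9 of 10 higher, and neutrophil markers 2.67 with 5 of 5 higher. Medians were -0.18 for B cell, -0.95 for T cell, -1.11 for goblet cell, -0.95 for Paneth cell, -0.36 for intestinal epithelial, -0.10 for macrophage and monocyte and 0.49 for stromal markers, and the part of these cells was not tested.

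Across both genotype comparisons, Tnfrsf17, Prdm1 and Spcs1 passed 2-fold downward each time, 3 of the 32 genes measured on all arrays, against 3.5% of 8039 genes. No gene of the set was at least 2-fold higher both times, against 3.46% of all genes. Both labelled knockout arrays lay below both wild type arrays for 12 of the 32 genes, against 24.1% of all genes. These were Jchain, Xbp1, Prdm1, Tnfrsf17, Fkbp11, Pdia6, Canx, Dnajb9, Ssr1, Ssr3, Atf4 and Spcs1. The second measured probes of Ssr1, Ssr3 and Atf4 did not show this order. Those of Dnajb9 and Pdia6 were not well above background on the wild type DSS and LIF array, so they cannot check it. The closest levels of the labelled knockout and wild type were 4.81 and 4.82 for Xbp1, 0.31 and 0.37 for Fkbp11, and 6.67 and 6.77 for Jchain. With normexp 11 of the 32 showed the order, without Jchain, against 27.7% of all genes. With quantile normalization 11 showed it, without Xbp1, against 26.2% of all genes. Both labelled knockout arrays lay above both wild type arrays for Derl3, Calr, Sec61b and Spcs2, 4 of the 32, against 16.3% of all genes. The second probes of Sec61b and Spcs2 did not show it, and with normexp Derl3 was the 1 gene of the set that did, against 6.11% of all genes.

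LIF in the labelled knockout, DSS and LIF against DSS, gave the smallest median difference in size of the 4 comparisons. Pou2af1 was at least 2-fold lower, 1 of 33 measured genes, against 3.07% of all 9781 measured genes, and 0 of 33 were at least 2-fold higher, against 3.22%. The median of the set was -0.08, that of all measured genes was -0.01, and the median size of a difference was 0.22 in the set and 0.31 in all measured genes. Below 2-fold, Mzb1 (-0.93), Derl3 (-0.88), Edem1 (-0.79), Tnfrsf17 (-0.77) and Ssr4 (-0.58) were lower with LIF, and P4hb (0.81) and Pdia4 (0.50) were higher. Of the other pathway genes 52 were measured, with 1 higher, 2 lower and a median of -0.13, and 0 were named by the rule given under the processing. With normexp 7 genes of the set were at least 2-fold lower, against 868 of 9781 genes in all. B cell markers had a median of -0.73 with 11 of 12 negative, against 51% of all measured genes. Pancreatic acinar markers had a median of 1.69 with 9 of 11 at least 2-fold higher, against 3.22% of all measured genes. Stromal markers had a median of -0.69, Paneth cell markers -0.34, T cell markers -0.26, neutrophil markers -0.10, macrophage and monocyte markers -0.07, intestinal epithelial markers 0.25 and goblet cell markers 0.37. The part of these cell types in the values of the set was not tested.

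LIF in wild type, DSS and LIF against DSS, used the array that stood apart. Ssr3, Canx and Ssr1 were at least 2-fold higher, 3 of 32 measured genes, against 34.4% of all 8983 measured genes. Pdia4, Pdia3, Ssr2, Hsp90b1, Sdf2l1, Edem1, Mzb1 and Sec61b were at least 2-fold lower, 8 of 32, against 13.7% of all measured genes. The median of the set was -0.11, while that of all measured genes was 0.57, or 0.43 with the arrays each centred on the median of its well detected probes. Another 5 genes, Sdc1, Sel1l, Hyou1, Ddit3 and Dnajc3, were well above background with DSS only. Of all probes, 61.7% were well above background in wild type with DSS and 37.6% in wild type with DSS and LIF. The bound was 3.26-fold for Dnajc3 and under 1-fold for the others, for which no difference is given. With that centring and with normexp the 3 higher genes no longer reached 2-fold. With normexp 13 genes were at least 2-fold lower, against 1538 of 8983 genes in all. Of the lower genes, Sec61b was -0.83 with quantile normalization and -0.73 in the authors' deposited table, and Ssr2 was -0.68 with normexp.

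Among the other pathway genes 51 were measured with LIF in wild type, of which 12 passed 2-fold upward and 14 downward, around a median of -0.03. The shares of all measured genes were 34.4% upward and 13.7% downward. Of the disulfide isomerases of the set, Pdia6 (0.87) was higher with LIF, below 2-fold. Pdia5 (-2.89) and Txndc5 (-2.05), thioredoxin-like ER oxidoreductases, were lower with LIF, as were Pdia3 and Pdia4. So were Sec24d (-1.85), a coat protein of ER export vesicles, the stress-induced pseudokinase gene Trib3 (-1.83), Srp9 (-1.72), the signal peptidase genes Sec11c (-1.64) and Spcs3 (-1.45), and the oligosaccharyltransferase genes Ostc (-1.62) and Stt3a (-1.50). Erlec1 (3.07), an ER lectin of the degradation pathway, and Sec31a (2.48) were higher. Goblet cell markers had a median of 1.95 with 4 of 7 higher, Paneth cell markers 1.56 with 4 of 5 higher, and pancreatic acinar markers -1.47 with 6 of 10 lower and 3 higher. Medians were 0.21 for B cell, 0.05 for T cell, 0.45 for intestinal epithelial, 0.43 for macrophage and monocyte, -0.45 for neutrophil and -0.32 for stromal markers. Their part in the values of the set was not tested.

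**Figure D4:**
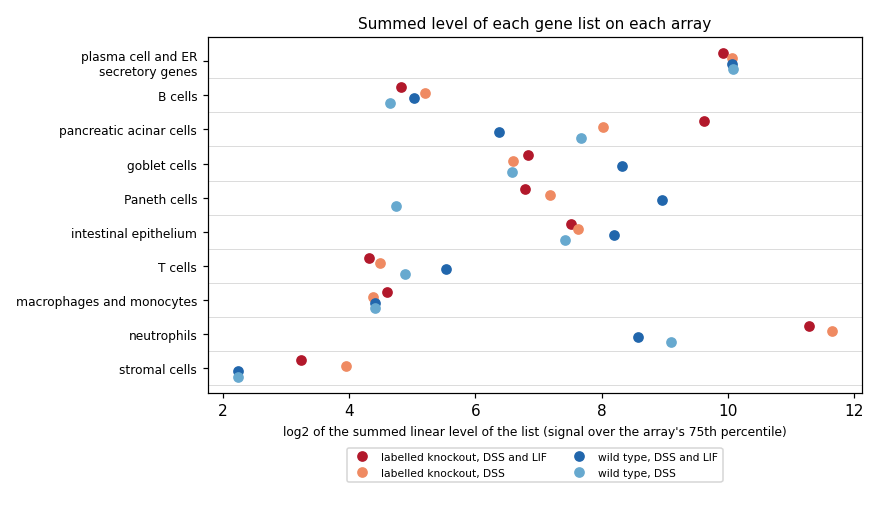
Log2 of the summed linear level of the set and of 9 marker lists on each array, where a linear level is the signal over the 75th percentile of its array. The sum of the 37 genes lies between 9.93 and 10.08 on all arrays, that of pancreatic acinar markers runs from 6.38 to 9.62 and that of Paneth cell markers from 4.74 to 8.95.

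The median level of the set was 2.77 and 2.93 in the labelled knockout with DSS and LIF and with DSS, against 2.13 and 3.10 in wild type with DSS and LIF and with DSS. Its summed level on the log2 scale was 9.93 and 10.07 in the labelled knockout with DSS and LIF and with DSS, against 10.06 and 10.08 in wild type with DSS and LIF and with DSS. A few bright probes, such as that of Sec61b, carry most of such a sum, so it says little about the other genes. The summed level of the B cell markers was 4.82 and 5.20 in the labelled knockout with DSS and LIF and with DSS, against 5.02 and 4.65 in wild type with DSS and LIF and with DSS. That of pancreatic acinar markers, cells rich in ER, was 9.62 and 8.02 in the labelled knockout with DSS and LIF and with DSS, against 6.38 and 7.67 in wild type with DSS and LIF and with DSS.

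The LIF difference was compared between genotypes in the 32 genes measured on all arrays, with no test, since 4 single arrays leave no residual degrees of freedom. It was at least 1 higher on the log2 scale in the labelled knockout for Pdia4, Pdia3, Ssr2, Sdf2l1, Hsp90b1, P4hb, Sec61b and Spcs2, 8 of 32, against 16.7% of all genes. It was at least 1 lower for Pou2af1, Canx and Ssr3, 3 of 32, against 33.4% of all genes. Second probes gave the opposite order for Ssr3 (0.53 in the labelled knockout and -2.43 in wild type) and Spcs2 (-0.12 and 0.60). With normexp the LIF differences in labelled knockout and wild type were less than 1 apart for some genes. These were Ssr2 (0.07 and -0.68), P4hb (0.23 and -0.11), Canx (-0.75 and -0.06) and Ssr3 (-0.77 and -0.16). The difference of the LIF differences was 3.24 for Pdia4, 2.24 for Pdia3 and 2.11 for Ssr2, and -1.97 for Pou2af1. For Pdia3 it came from wild type, with LIF differences of -0.07 in the labelled knockout and -2.30 in wild type. The LIF differences had the same sign in both genotypes for 17 of 32 genes (53.1%), against 46.5% of all genes.

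The genes of the set with the ER stress element in the promoter lay on both sides of 0 in each of the 4 comparisons. The 8 such genes of the set had a median of -0.10 between the genotypes under DSS, of which Derl3 passed 2-fold upward and Dnajc3 downward, against -0.33 for the 21 measured genes with a promoter and no element. Under DSS and LIF, 7 were measured between the genotypes with a median of -0.31, of which 1 passed 2-fold upward and 2 downward, against -0.37 without the element. With LIF in the labelled knockout 0 of 8 reached 2-fold and the median was -0.19, against -0.07 without the element. With LIF in wild type the median of 7 was -0.02, with Canx higher and Hsp90b1 lower, against -0.08 without the element. Of all measured genes, 13.2% passed 2-fold upward and 6.94% downward between the genotypes under DSS. Under DSS and LIF these shares were 14.2% and 31.3%. With LIF they were 3.22% and 3.07% in the labelled knockout and 34.4% and 13.7% in wild type. Genes outside the set with the element had a median of -0.21 between the genotypes under DSS (8 measured), against 0.07 for all measured genes. Under DSS and LIF the 6 measured ran from -1.77 to -0.10 between the genotypes, with a median of -0.90. All measured genes had a median of -0.45 there, and 65.2% of them were negative. The medians of the genes outside the set with LIF were -0.10 in the labelled knockout (7 measured) and 0.62 in wild type (6 measured). Those of all measured genes were -0.01 and 0.57. These medians are descriptions of letters in a window beside array values.

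Probes of the same gene were compared where several were measured, since the probe with the highest mean stands for the gene in all counts above. The set held 29 genes with 1 probe, 7 with 2 and 1 with 3. Ssr3 gave the clearest disagreement. Its brighter probe was 3.26 and 3.33 in the labelled knockout with DSS and LIF and with DSS, against 5.09 and 3.96 in wild type with DSS and LIF and with DSS. Its dimmer probe was 2.46 and 1.93 in the labelled knockout with DSS and LIF and with DSS, against 0.96 and 3.39 in wild type with DSS and LIF and with DSS. With LIF in wild type these probes differed by 1.14 and -2.43 on the log2 scale, so the direction of Ssr3 was not settled. The probes of Spcs2 differed by -0.91 and 0.60 in the same comparison, whereas those of Sec61b (-1.13 and -0.64) and of Ssr1 (1.07 and 0.68) kept a direction.

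Opposite signs between measured probes of a gene were found for 2 of 5 genes of the set with LIF in wild type, against 45.7% of 1292 genes in all, and for 3 of 5 under DSS and LIF between genotypes, against 44.2% of 1144 genes. Between the genotypes under DSS the count was 3 of 6, against 42.3% of 1833 genes, and for LIF in the labelled knockout 3 of 6, against 42.3% of 1632 genes. The median spread between probes of a gene was 1.42 in the set for the genotypes under DSS and LIF and 0.15 for LIF in the labelled knockout. Genes with 1 probe, among them Tnfrsf17, Prdm1 and Spcs1, have no such check.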

How the data were processed

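RNA of 4 groups was hybridised to 1 one-colour Agilent array each. The authors deposited scanner files whose processed signals are intensities on a linear scale, made with Feature Extraction 11.0.1.1 per the file headers, while the submitters' processing notes name version 9.1. A deposited table holds normalized log2 values, by a method that the sources used here do not state. Its upper quartile was 5.85 in every column, and its medians were 2.54 for wild type with DSS and LIF and 3.31 for each other array.

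Control spots and spots marked as outliers were left out, spots of a probe were averaged, and log2 of the 75th percentile of each array was subtracted from the log2 processed signal. Of 39429 probes, 27234 (69.1%) were named through accessions in RefSeq's GRCm38.p6 table. The probe with the highest mean stands for a gene, and it is measured where at least 50% of its spots were well above background. Called means a difference of at least 1 on the log2 scale (2-fold), with no test, and 1 array a group limits the precision. All members were described. Other pathway genes were named if at least 2-fold in 1 direction under 75th percentile scaling, quantile normalization and normexp. Members and lists were chosen with earlier results of these data known. The planned search of protein sequences was not run. Python 3.11.15, pandas 2.3.3, numpy 2.4.6, R 4.3.3 and limma 3.58.1 (normexp, offset 50, on median signals) were used, and the scaling was tested on simulated data.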

Additional observations from a re-analysis of the deposited data

Results flagged for a closer look

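Genes are listed here where the difference under the same contrast was at least 0.5 on the log2 scale in both groups and opposite in direction, a limit chosen after the data were seen. Each group is 1 array, so none of these differences was tested. Pou2af1 was lower with LIF in the labelled knockout (-1.32) and higher in wild type (0.64). Seen between genotypes, Pou2af1 was lower in the labelled knockout under DSS and LIF (-0.74) and higher under DSS (1.23). Pdia4 was higher with LIF in the labelled knockout (0.50) and lower in wild type (-2.74), and between genotypes it was higher in the labelled knockout under DSS and LIF (2.61) and lower under DSS (-0.63). P4hb was higher with LIF in the labelled knockout (0.81) and lower in wild type (-0.58). Each of the 5 contrasts uses the wild type DSS and LIF array, which correlated least with the others. With normexp the opposite directions were lost for the LIF differences of Pou2af1 (-2.05 in the labelled knockout and -0.57 in wild type) and of Pdia4 (-0.11 and -1.78). With normexp those of P4hb were 0.23 and -0.11, the genotype differences of Pou2af1 were -0.89 under DSS and LIF and 0.58 under DSS, and those of Pdia4 were 0.83 and -0.84.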

How the results depend on the processing

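Of 84 recomputed counts and medians of the set, 64 stayed close to the reported value (counts within 1.5 times) and 20 moved. Normexp moved the most. With it, labelled knockout against wild type under DSS gave 0 higher and 9 lower genes with a median of -0.57, and under DSS and LIF 2 higher with a median of -0.45. LIF gave 7 lower with a median of -0.75 in the labelled knockout, and 0 higher and 13 lower with a median of -0.69 in wild type. Without the background filter there were 7 lower genes between genotypes under DSS, a median of -0.06 between genotypes under DSS and LIF, 2 higher genes with LIF in the labelled knockout and a median of -0.23 with LIF in wild type. Centring on probes well above background gave a median of -0.14 between genotypes under DSS and LIF, and 0 higher genes with a median of -0.25 with LIF in wild type. Averaging probes gave a median of -0.11 between genotypes under DSS and 1 higher gene with LIF in wild type. The authors' deposited table gave 3 lower genes with LIF in the labelled knockout, where 423 of 9781 genes in all were lower. Of genes at least 0.5 from 0 on the log2 scale, normexp turned the direction of 9 with LIF in wild type: Canx (-0.06), Ssr3 (-0.16), Xbp1 (-0.63), Prdm1 (-0.50), Pou2af1 (-0.57), Hspa5 (-0.74), Pdia6 (-0.27), Herpud1 (-0.51) and Atf4 (-0.47). It also turned Tnfrsf17 (0.04) and Pdia4 (-0.11) with LIF in the labelled knockout and Sec61b (-0.08) between genotypes under DSS. Averaging probes turned Ssr3 (-0.65) with LIF in wild type. The cause was not tested. Over all genes, normexp gave 329 higher and 819 lower of 10529 between genotypes under DSS, 437 and 1202 of 8348 under DSS and LIF, 6 and 868 of 9781 with LIF in the labelled knockout, and 795 and 1538 of 8983 with LIF in wild type. Without the filter the same counts were 5875 and 2023 of 20646, 3485 and 4409 of 20610, 2468 and 1161 of 20609, and 8811 and 3361 of 20647. No paired analysis was possible because each group has 1 array. Sdc1, Sel1l and Hyou1, near background on 3 arrays, are limited by signal.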
